A study of Drosophila simulans and Drosophila sechellia and Drosophila simulans x Drosophila sechellia with 72 samples.

Results

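Est-6 encodes a secreted carboxylesterase, an enzyme that splits carboxylic esters. It is best known from Drosophila melanogaster, where it is abundant in the male ejaculatory duct, passes to the female in the seminal fluid and is also present in the antennae. Est-P is its neighbouring tandem duplicate in that species, and the 2 genes form the beta-esterase cluster. Est-6 was taken as 1 row of a table of 7836 genes, chosen by its name, and was followed in every library.

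The study measured polyadenylated RNA in 72 libraries of hybrid flies (Drosophila simulans x Drosophila sechellia), D. sechellia and D. simulans. Each library pooled 10 whole animals reared at 20 °C, with 36 libraries of adult females and 36 of third-instar larvae that the labels give as female. D. sechellia lives on noni fruit, whose main toxic compound is octanoic acid, while D. simulans is a generalist. Each group carries a 2-letter media history, the medium of the previous generation and then the current one, with O for octanoic acid and S for standard medium. The histories OO, SO, OS and SS each had 3 biological replicates in every genotype and stage, which gives 24 groups. Because animals were pooled whole, fewer cells of a type and less RNA per cell cannot be told apart in any value here.

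Values are FPKM as the authors deposited them, that is, fragments counted for a gene relative to its transcript length and to the mapped fragments of its library. A hybrid library has 1 column for its D. sechellia allele and 1 for its D. simulans allele, and its total is their sum. Differences are log2 differences of FPKM + 1, and a difference is called where limma's p, adjusted by Benjamini-Hochberg over all genes tested, is under 0.05. Summed FPKM differed between genotypes, with 958731 to 1169420 in hybrid adults, 1090157 to 1454241 in D. sechellia adults and 483241 to 515024 in D. simulans adults. The median gene was therefore 0.72 higher on the log2 scale in D. sechellia adults than in D. simulans adults and 0.56 higher in larvae, and values rescaled by median ratios are given wherever they alter a result. The table holds gene names without coordinates, so no position or sequence is given. The pools were checked with marker lists. The 9 testis markers in the table summed to at most 1.10 FPKM in any hybrid adult library, 0.886 in D. sechellia adults and 0.251 in D. simulans adults, but to 33.5 to 301 FPKM in hybrid larvae, 180 to 490 in D. sechellia larvae and 113 to 737 in D. simulans larvae, although the labels give those larvae as female.

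Est-6 was an adult transcript in all 3 genotypes. It averaged 287 ± 49.5 FPKM in hybrid adults, against 2.03 ± 1.88 FPKM in hybrid larvae (SD, n = 12 each, as for all means of a genotype and stage). D. sechellia had 155 ± 52.0 FPKM in adults and 8.12 ± 9.59 FPKM in larvae. D. simulans had 129 ± 21.3 FPKM in adults and 6.27 ± 3.17 FPKM in larvae. Every adult library lay above every larval library of its genotype. Ranked among all genes of a library, Est-6 sat at a median percentile of 93.5 in hybrid adults, 88.6 in D. sechellia adults and 93.9 in D. simulans adults. The median percentile was 24.7 in hybrid larvae, 21.5 in D. sechellia larvae and 43.6 in D. simulans larvae.

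The adult excess was called in each genotype. The log2 difference between adults and larvae was 6.79 ± 0.340 (SE) in hybrids (adjusted p = 6.37e-25), 5.07 ± 0.340 in D. sechellia (adjusted p = 1.94e-19) and 4.31 ± 0.340 in D. simulans (adjusted p = 1.26e-16). Calls in the same direction were common, at 52.9% of 7490 genes in hybrids, 38% in D. sechellia and 32.4% in D. simulans. The size was less common: the Est-6 difference lay at percentile 98.8 of all genes in hybrids, 98.6 in D. sechellia and 97.9 in D. simulans. The stage difference was 0.77 ± 0.482 larger in D. sechellia than in D. simulans on the log2 scale, which was not called (adjusted p = 0.229, with 32.1% of genes called in either direction). It was called, at 1.10 with an adjusted p of 0.0358, when replicate 1 of the D. sechellia SS larvae was left out. After rescaling, the adult excess was 5.83 in hybrids, 4.72 in D. sechellia and 4.15 in D. simulans on the log2 scale, each called. The median over all genes in hybrids was 0.58 as deposited and -0.21 after rescaling.

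**Figure D1:**
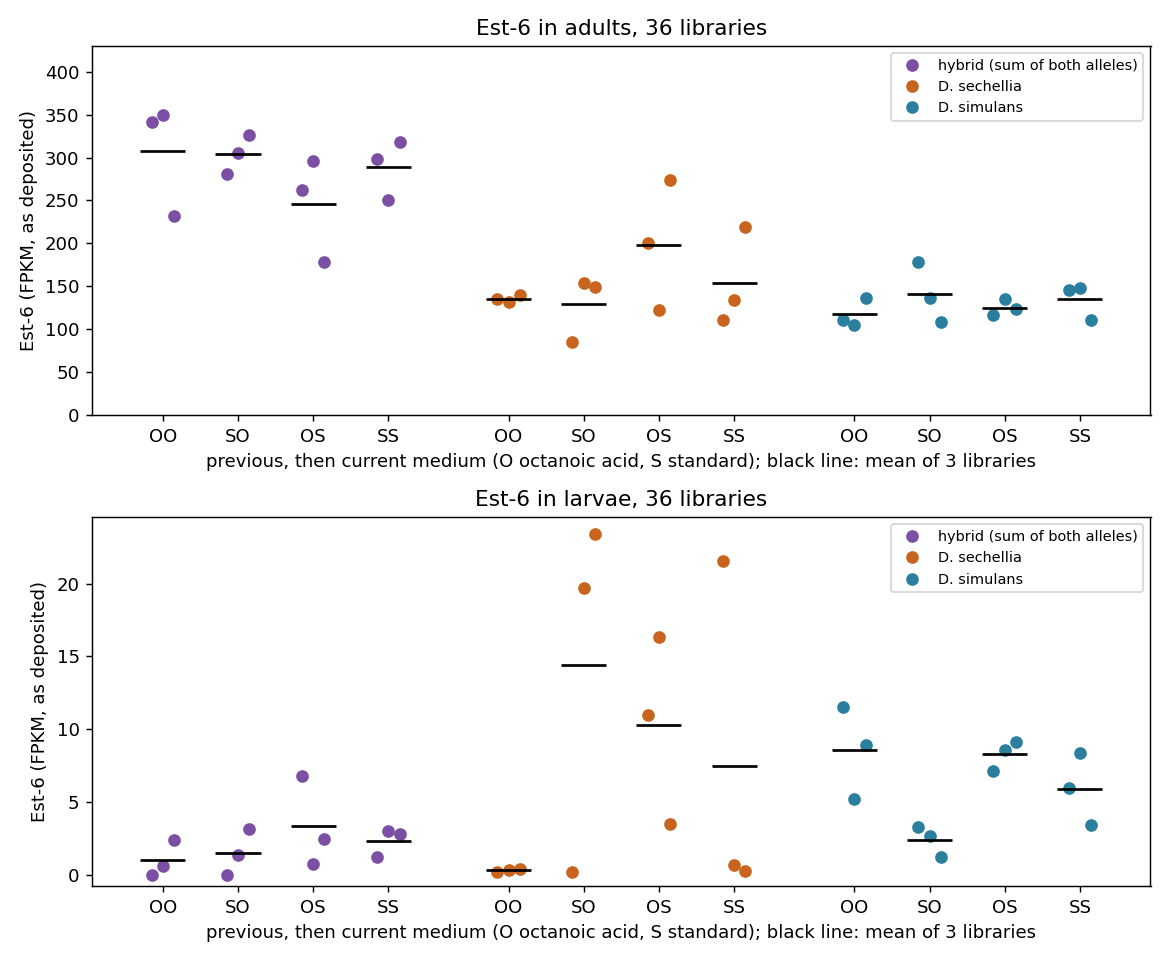
Est-6 FPKM as deposited (vertical axis) in the 36 adult libraries above and the 36 larval libraries below, by genotype and media history; each point is 1 library and each black line the mean of 3. Adult libraries span 85.2 to 350 FPKM and larval libraries 0 to 23.4 FPKM, on axes of different range, and the D. sechellia larvae spread most.

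Among adults the order of the genotypes depended on the scale. Hybrid adults had 342, 350 and 232 FPKM in OO, 281, 305 and 326 in SO, 262, 296 and 178 in OS, and 298, 250 and 318 in SS. D. sechellia adults had 136, 132 and 139 FPKM in OO, 85.2, 154 and 149 in SO, 200, 122 and 274 in OS, and 111, 134 and 219 in SS. D. simulans adults had 111, 105 and 136 FPKM in OO, 178, 136 and 109 in SO, 116, 136 and 123 in OS, and 146, 148 and 111 in SS. All 12 hybrid libraries lay above the highest D. simulans library, and 8 of 12 lay above the highest D. sechellia library. The D. simulans range, 105 to 178 FPKM, held 8 of the 12 D. sechellia libraries, with 3 above it and 1 below.

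On the deposited scale hybrids exceeded both parents. The log2 difference was 0.93 ± 0.135 against D. sechellia (adjusted p = 4.93e-07, with 39.6% of genes called higher) and 1.14 ± 0.135 against D. simulans (adjusted p = 1.1e-08, with 59.1% called higher). After median-ratio rescaling hybrids averaged 189 ± 41.4 rescaled FPKM, D. sechellia 140 ± 57.7 and D. simulans 199 ± 33.0. The excess over D. sechellia was then 0.50 (adjusted p = 0.00666), and the difference from D. simulans was -0.09 and not called (adjusted p = 0.618). An adult hybrid level above D. sechellia was thus called on both scales and a level above D. simulans on the deposited scale alone.

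Adults of the 2 species did not differ by a call on the deposited scale. D. sechellia was 0.20 ± 0.135 above D. simulans on the log2 scale (95% interval -0.07 to 0.48, adjusted p = 0.173), whereas 72.1% of 6420 genes were called between these adults, 67.2% higher and 4.92% lower. The Est-6 difference lay at percentile 19.4 of all genes, below the median of 0.72. Leaving out replicate 2 of the D. sechellia OS adults gave 0.28 and a call (adjusted p = 0.0471). After rescaling, 9 of 12 D. sechellia libraries lay below the lowest D. simulans library. The difference was then -0.59 (adjusted p = 0.00257), a lower level in D. sechellia, with 31.6% of genes called higher and 25.5% lower on that scale.

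**Figure D2:**
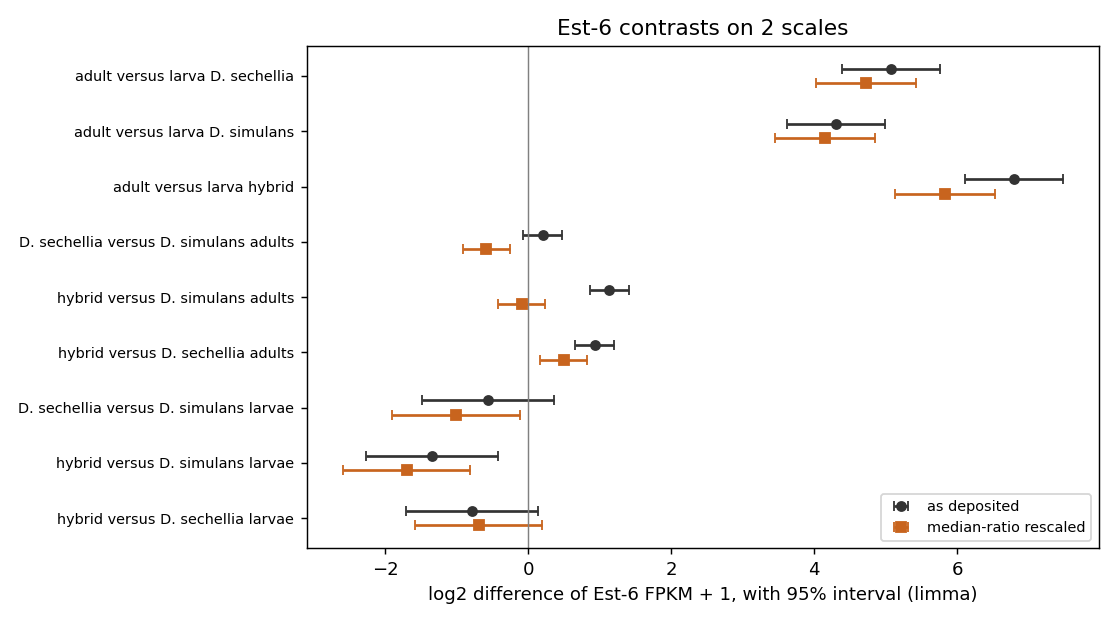
Log2 differences of Est-6 (horizontal axis, log2 of FPKM + 1, first-named set minus second) with 95% limma intervals, on the deposited scale (circles) and after median-ratio rescaling (squares). The 3 adult-versus-larva differences keep their sign and stand clear of 0, whereas D. sechellia versus D. simulans and hybrid versus D. simulans adults change sign.

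Of the 3 D. sechellia adult libraries with the most Est-6, OS 3, SS 3 and OS 1, both OS libraries also had the highest levels of larval fat body genes. Lsp1beta, which encodes a larval storage protein, had 476, 176 and 399 FPKM in OS 3, SS 3 and OS 1, and the other 9 D. sechellia adult libraries had 47.3 to 173 FPKM. Fbp2, another fat body protein gene, had 894, 285 and 650 FPKM in the same 3 libraries, and the other D. sechellia adults reached at most 316 FPKM, above SS 3. The yolk protein gene Yp1 had 8390, 11915 and 5280 FPKM in these libraries, of which OS 1 and OS 3 were the lowest of the 12. The 5 late-larva markers in the table together summed to 184 to 1772 FPKM in D. sechellia adults, with a median of 473 FPKM. Their part in the Est-6 values was not tested.

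Larvae held little Est-6, and the genotypes overlapped. Hybrid larvae had 0, 0.603 and 2.37 FPKM in OO, 0, 1.32 and 3.11 in SO, 6.79, 0.728 and 2.46 in OS, and 1.21, 3.03 and 2.77 in SS. D. sechellia larvae had 0.198, 0.318 and 0.354 FPKM in OO, 0.182, 19.7 and 23.4 in SO, 11.0, 16.4 and 3.50 in OS, and 21.6, 0.634 and 0.229 in SS. D. simulans larvae had 11.5, 5.22 and 8.94 FPKM in OO, 3.28, 2.64 and 1.18 in SO, 7.13, 8.55 and 9.12 in OS, and 5.94, 8.35 and 3.39 in SS. Below 1 FPKM were 4 hybrid libraries, 6 D. sechellia libraries and 0 D. simulans libraries. The highest value of all larvae and the lowest one above 0 both came from the D. sechellia SO group.

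Hybrid larvae were below D. simulans larvae by a call. The log2 difference was -1.35 ± 0.451 (adjusted p = 0.0104, with 30.2% of 7167 genes called lower), and 11 of the 12 hybrid libraries were at or below the D. simulans median of 6.53 FPKM. After rescaling it was -1.70 (adjusted p = 0.00106). The difference of hybrid from D. sechellia larvae, -0.78 ± 0.451, was not called (adjusted p = 0.132, with 63.7% of genes called in either direction), but without replicate 1 of the D. sechellia SO larvae it was -1.14 with an adjusted p of 0.0113. D. sechellia larvae were at -0.56 ± 0.451 against D. simulans larvae (95% interval -1.49 to 0.36, adjusted p = 0.299, with 55.8% of genes called, 49.4% higher and 6.36% lower). Leaving out 1 library at a time gave -0.90 to -0.21, and rescaling gave -1.01 (95% interval -1.90 to -0.12, adjusted p = 0.053). The arithmetic mean of D. sechellia larvae was the higher of the 2, and their median, 2.07 FPKM, the lower.

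In D. sechellia larvae the SO and SS libraries were split within their groups. Replicate 1 of SO stood at 0.182 FPKM beside 19.7 and 23.4 in its own group, and replicate 1 of SS stood at 21.6 FPKM beside 0.634 and 0.229. The 3 OO libraries had 0.198 to 0.354 FPKM and the 3 OS libraries 3.50 to 16.4 FPKM. The coefficient of variation over 12 libraries was 92.4% in hybrid larvae, 118% in D. sechellia larvae and 50.6% in D. simulans larvae.

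Over these 12 libraries, log2 values of the deposited FPKM + 1 correlated best with Est-6 for TwdlX, Fad2, CG8562 and CG15093. These 4 genes were chosen after the values were seen. TwdlX is a Tweedle-family gene of cuticle proteins, and Fad2 a fatty acid desaturase used in making female cuticular hydrocarbons in D. melanogaster. TwdlX had 0.315, 2.34 and 0.419 FPKM in OO, 0.737, 34.6 and 79.9 in SO, 18.0, 37.3 and 6.72 in OS, and 73.6, 1.62 and 0.362 in SS. Fad2 had 0, 0.802 and 0 FPKM in OO, 0.178, 19.0 and 16.3 in SO, 15.1, 15.6 and 4.46 in OS, and 38.5, 0.528 and 0 in SS. For both genes the libraries at the top were SO 2, SO 3, the OS libraries and SS 1, as for Est-6. CG8562 ran from 7.01 FPKM in SS 3 to 260 FPKM in SS 1, and CG15093 from 1.29 FPKM in SO 1 to 91.2 FPKM in SS 1.

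Between stages these genes were not all alike. Fad2 was 8.22 higher in adults than in larvae of D. sechellia on the log2 scale (adjusted p = 1.88e-24), as Est-6 was by 5.07, but TwdlX was 2.95 lower in adults (log2 difference -2.95, adjusted p = 1.4e-08). Egg and yolk markers were near 0 in the D. sechellia larvae, with a summed 0 to 1.09 FPKM over 4 genes, at or near 0 also where Est-6 was high. The 5 late-larva markers summed to 9413 to 22601 FPKM, with the highest sums in SO 2 and OS 3. Among them, Lsp1beta had 1010, 2537 and 2572 FPKM in OO, 890, 4608 and 2636 in SO, 2494, 1430 and 3997 in OS, and 3892, 1130 and 1526 in SS. Its 3 highest libraries, SO 2, OS 3 and SS 1, had 19.7, 3.50 and 21.6 FPKM of Est-6, but OS 2, with 16.4 FPKM of Est-6, was among its lower ones. The ecdysone-inducible ImpE2 had 638, 538 and 584 FPKM in OO, 514, 426 and 165 in SO, 327, 521 and 230 in OS, and 450, 343 and 756 in SS. Its lowest values, in SO 3 and OS 3, stood beside 23.4 and 3.50 FPKM of Est-6, and its highest, in SS 3, beside 0.229 FPKM, while OS 2 and SS 1 were in its middle range with 16.4 and 21.6 FPKM of Est-6. The part of these genes in the Est-6 values was not tested.

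**Figure D3:**
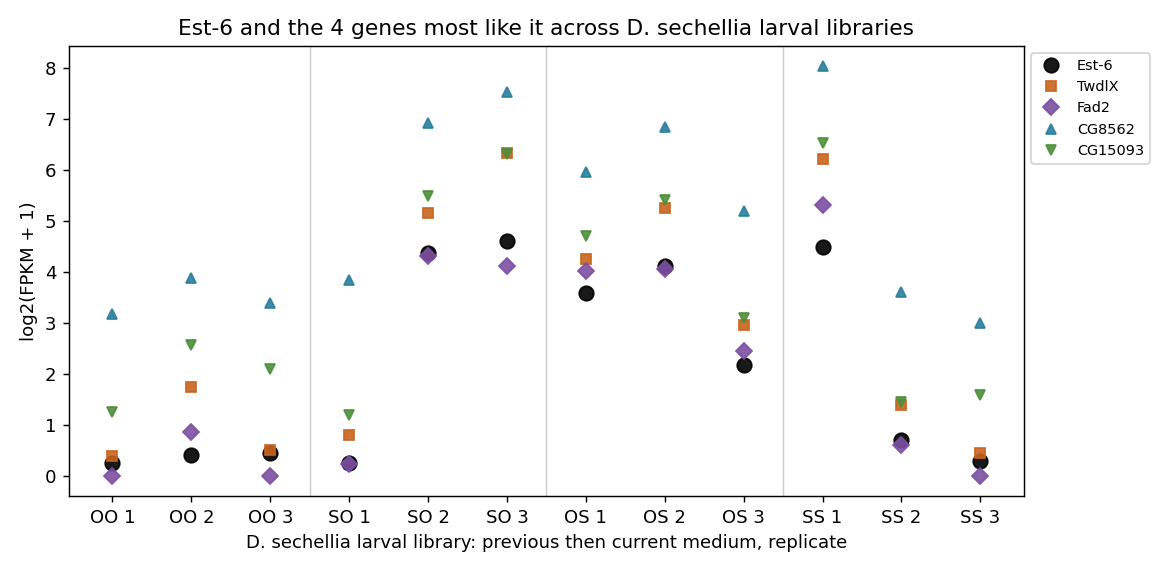
Log2(FPKM + 1) of Est-6 and of the 4 genes most like it (vertical axis) in each of the 12 D. sechellia larval libraries, ordered by media history and replicate. All 5 genes are low in the OO libraries, in SO 1, SS 2 and SS 3, and high in SO 2, SO 3 and SS 1.

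The medium gave no called change in Est-6 in any genotype or stage. In D. sechellia adults, current octanoic acid gave 133 ± 24.6 FPKM and current standard medium 176 ± 64.6 FPKM (SD, n = 6 each), a log2 difference of -0.36 ± 0.190 (unadjusted p = 0.0724, adjusted p = 1). Only 0.0156% of 6420 genes were called for that contrast. In hybrid adults, octanoic acid gave 306 ± 44.0 FPKM and standard medium 267 ± 50.3 FPKM, a log2 difference of 0.21 ± 0.190 (adjusted p = 0.523, with 6.73% of genes called). In D. simulans adults the values were 129 ± 27.6 FPKM on octanoic acid and 130 ± 15.3 FPKM on standard medium, a log2 difference of -0.03 ± 0.190 with a 95% interval of -0.42 to 0.36 (adjusted p = 1, with 0% of genes called). For the previous medium the log2 difference was -0.13 ± 0.190 in hybrid adults (adjusted p = 0.847, with 1.7% of genes called), 0.23 ± 0.190 in D. sechellia adults and -0.17 ± 0.190 in D. simulans adults (adjusted p = 1 in both, with 0.0779% and 0% of genes called).

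On the log2 scale the largest media difference within a genotype of larvae was that of the previous medium in D. simulans. Larvae whose parents had octanoic acid averaged 8.42 ± 2.11 FPKM and those whose parents had standard medium 4.13 ± 2.58 FPKM (SD, n = 6 each). The log2 difference was 1.00 ± 0.638 (95% interval -0.31 to 2.30, unadjusted p = 0.13, adjusted p = 0.511, with 0.293% of 7167 genes called), in a fit with the spread of all larvae, including D. sechellia. With D. simulans larvae alone it was 1.00 ± 0.256 (adjusted p = 0.118). Rescaling in the fit of all larvae gave 1.26 (95% interval -0.00057 to 2.52, adjusted p = 0.31). The 3 SO libraries, 1.18 to 3.28 FPKM, lay below all other D. simulans larvae. The highest library, OO 1 with 11.5 FPKM of Est-6, also had 33.5 FPKM of summed egg and yolk markers. The other D. simulans larvae had at most 0.909 FPKM of these markers. Leaving out 1 library at a time gave 0.85 to 1.14 for the previous medium in D. simulans larvae, without a call. In D. sechellia larvae the means were 5.28 ± 6.82 FPKM after octanoic acid and 11.0 ± 11.7 FPKM after standard medium in the previous generation, a wider gap in FPKM. The log2 difference there was -0.63 ± 0.638 (adjusted p = 1, with 0.014% of genes called), and the difference between the 2 species, -1.62 ± 0.903, was not called (unadjusted p = 0.0829, adjusted p = 0.688, with 0% of genes called). In hybrid larvae it was -0.06 ± 0.638 (adjusted p = 1, with 0.67% of genes called). Current octanoic acid gave -0.82 ± 0.638 in hybrid larvae (adjusted p = 0.607, with 0.949% of genes called), -0.84 ± 0.638 in D. sechellia larvae and -0.52 ± 0.638 in D. simulans larvae (adjusted p = 1 in both, with 0% and 0.014% of genes called). The D. sechellia value ran from -1.23 to -0.13 when 1 library at a time was left out.

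The alleles of the hybrids place both copies of a gene in 1 set of cells, and the ratio between them is the usual measure of cis-acting differences. As deposited, the D. sechellia allele of Est-6 had 177 ± 49.8 FPKM in hybrid adults and the D. simulans allele 109 ± 25.7 FPKM (SD, n = 12 each). The D. sechellia column was the higher in 11 of 12 libraries, with OS 1 the exception at 97.9 FPKM for the D. sechellia allele and 164 FPKM for the D. simulans allele. Its share of Est-6 was 61.1 ± 9.90%. The D. sechellia columns, however, held 84.5 ± 2.69% of the FPKM of all genes in these libraries.

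With every allele column scaled to a total of 1000000, the direction was opposite. The D. sechellia allele then averaged 195 ± 45.1 scaled FPKM and the D. simulans allele 673 ± 126 scaled FPKM. The D. sechellia share was 22.6 ± 4.18%, and it was under 50% in all 12 libraries. The log2 allelic difference was -1.80 ± 0.107 (adjusted p = 3.45e-09, with 28.5% of 6183 genes called lower). Median-ratio rescaling of the allele columns gave -1.88, whereas the columns as deposited gave 0.66 (adjusted p = 0.00178) and a total shared by both columns of a library 0.67 (adjusted p = 0.00188). Which allele was the higher in adults thus rests on how the unequal allele columns are put on 1 scale. How the authors assigned reads to alleles is not given in the sources used here.

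**Figure D4:**
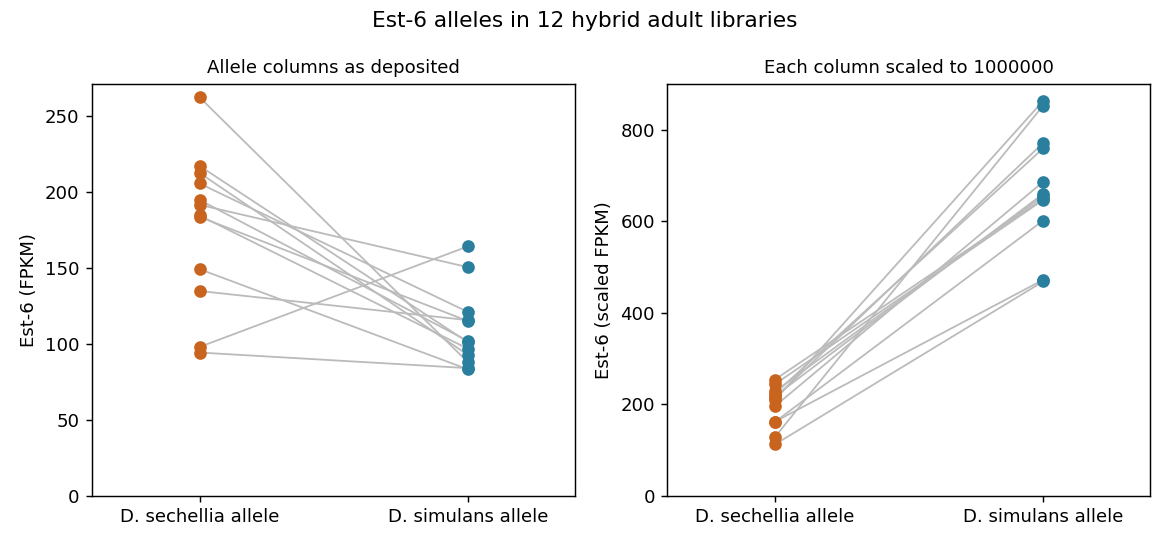
Est-6 in the D. sechellia and D. simulans allele columns of the 12 hybrid adult libraries, in FPKM as deposited (left) and with column totals set to 1000000 (right); a line joins the 2 alleles of a library. The D. sechellia allele is the higher in 11 of 12 libraries on the left and in 0 of 12 on the right.

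On the same scaled values the parents differed less than the alleles did. D. sechellia adults had 117 ± 32.5 scaled FPKM and D. simulans adults 259 ± 47.2 scaled FPKM. The parental log2 difference exceeded the allelic one by 0.62 ± 0.193 (adjusted p = 0.00637, with 22.6% of 6501 genes called in that direction). It did so by 1.28 after median-ratio rescaling (adjusted p = 2.01e-05), but it was below the allelic one by -1.84 with a shared total (adjusted p = 4.51e-10) and by -0.46, not called, as deposited (adjusted p = 0.0546). These fits took both allele columns of a hybrid library as independent samples.

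In hybrid larvae the alleles were at the edge of detection. The D. sechellia allele of Est-6 was listed at 0 in 8 of 12 libraries and the D. simulans allele in 3, and both were at 0 in OO 1 and SO 1. Where it was above 0, the D. sechellia allele had 1.20 to 2.37 FPKM, in OO 3, OS 1, SS 2 and SS 3. The D. simulans allele reached 4.91 FPKM in OS 1. The smallest value above 0 of any gene was 0.0726 to 0.284 FPKM in the D. sechellia columns of these libraries and 0.0602 to 0.119 FPKM in the D. simulans columns. The scaled allelic difference was -1.38 ± 0.468 (adjusted p = 0.0232, with 38% of 6994 genes called lower). It lost its call, with an adjusted p of up to 0.0517, when replicate 3 of the SO larvae or replicate 3 of the OS larvae was left out. As deposited it was -0.54 (adjusted p = 0.133), and with a shared total -0.84 (adjusted p = 0.116). The parental and allelic differences were not told apart (difference -0.29 ± 0.665, adjusted p = 0.759, with 41.1% of genes called).

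Est-P ran opposite to Est-6 between the stages. It had 1.30 ± 2.11 FPKM in hybrid adults and 1587 ± 746 FPKM in hybrid larvae. D. sechellia had 0.556 ± 0.357 FPKM in adults and 382 ± 147 FPKM in larvae. In D. simulans Est-P was listed at 0 in all 12 adult libraries and averaged 96.2 ± 81.4 FPKM in larvae. The log2 difference of Est-P between adults and larvae was -9.72 ± 0.309 in hybrids (adjusted p = 4.99e-34) and -7.87 ± 0.309 in D. sechellia (adjusted p = 1.44e-29). The share of genes called lower in adults was 28.3% in hybrids, 32.2% in D. sechellia and 34.9% in D. simulans.

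The 2 genes could share reads where their sequences are alike, and how reads were divided between them is not known. In D. simulans adults Est-P was listed at 0 beside 105 to 178 FPKM of Est-6. Hybrid larvae had the highest mean Est-P and the lowest mean Est-6, though their Est-6 was not called different from that of D. sechellia larvae. Whether the genes shared reads was not tested. Between larvae of the species Est-P differed by a call where Est-6 did not, with 2.26 ± 0.324 in D. sechellia over D. simulans (adjusted p = 8.06e-07). The larval alleles of Est-P also differed, by 1.03 ± 0.0788 for the D. sechellia over the D. simulans allele on scaled values (adjusted p = 4.37e-08).

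**Figure D5:**
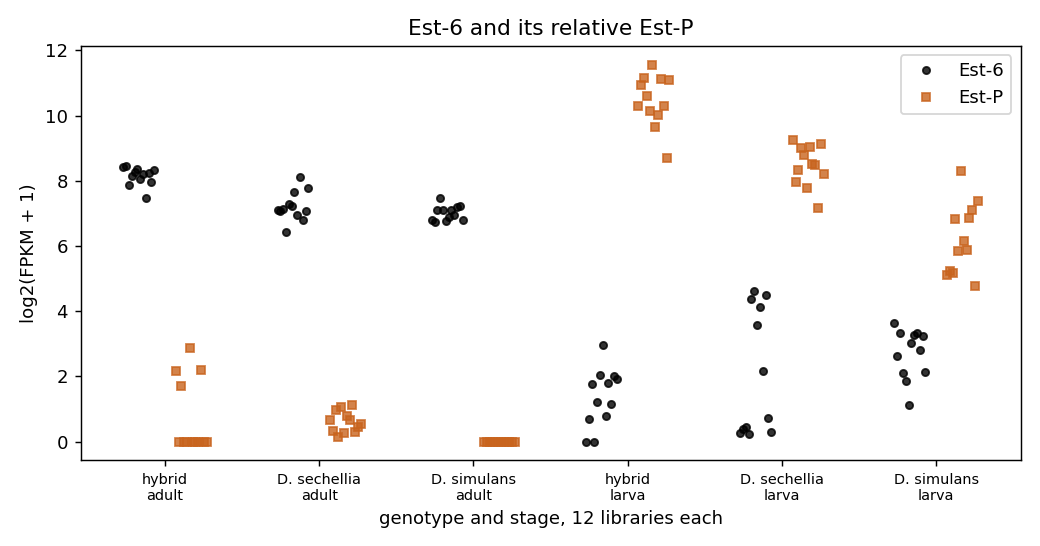
Log2(FPKM + 1) of Est-6 (circles) and Est-P (squares) in the 12 libraries of each genotype and stage, adults on the left and larvae on the right. Est-6 lies above Est-P in every adult set and below it in every larval set.

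Other esterases showed that neither gene's stage pattern was shared by a whole list of relatives. Of 37 esterase and cholinesterase-like names listed, Est-P among them and Est-6 not counted, 23 were in the table and 21 were tested between stages. In hybrids 12 were higher in adults, 6 lower and 3 not called, beside 52.9% of all genes higher and 28.3% lower. In D. sechellia 9 were higher, 7 lower and 5 not called, beside 38% and 32.2% of all genes. In D. simulans 3 were higher, 10 lower and 8 not called, beside 32.4% and 34.9% of all genes. Rescaling gave 4, 9 and 8 in hybrids, on a scale where 31.8% of all genes were called higher and 43.7% lower. The list's median log2 difference was 0.74 in hybrids, 0.20 in D. sechellia and -0.12 in D. simulans, beside 0.58, 0.12 and 0 over all genes in the same order.

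Est-6 itself had a larger adult excess than any called member of the list in each genotype, and Est-P had the largest called decrease. Jhedup, a duplicate of the juvenile hormone esterase gene, was higher in adults by 2.88 in hybrids, 2.03 in D. sechellia and 2.05 in D. simulans (adjusted p = 2.51e-19, 1.62e-13 and 1.22e-13). In hybrids alpha-Est9, of the alpha-esterase cluster, was higher by 1.96 (adjusted p = 1.45e-13). CG4382 was lower in adults by a log2 difference of -5.08 in hybrids and -3.29 in D. sechellia (adjusted p = 2.54e-24 and 1.72e-16). Gli (gliotactin, a septate junction protein) was at -1.17 in D. sechellia and -2.17 in D. simulans (adjusted p = 7.63e-08 and 6.37e-16). In D. simulans Glt (glutactin, a basement membrane protein with a cholinesterase-like domain) was at -3.51 (adjusted p = 4.34e-17).

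Between adults of the species, 16 of the 20 other esterases tested were higher in D. sechellia, 2 lower and 2 not called, beside 67.2% of all genes higher and 4.92% lower. After rescaling 13 were higher, 3 lower and 4 not called, beside 31.6% and 25.5% of all genes. The list's median was 1.12 as deposited, beside 0.72 over all genes. The members of smallest p were 4 genes of the alpha-esterase cluster, related copies that could also share reads. Alpha-Est7 had 173 ± 35.1 FPKM in D. sechellia adults and 32.1 ± 5.38 FPKM in D. simulans adults (log2 difference 2.38, adjusted p = 8.61e-15), and alpha-Est1, alpha-Est5 and alpha-Est3 differed by 2.20, 2.17 and 1.96. After rescaling these 4 differences were 1.60, 1.43, 1.41 and 1.19 in the order given. CG3841 had the largest difference of the members tested, 2.88 (adjusted p = 5.37e-13), and 2.25 after rescaling. Between larvae, 9 of the 19 tested were higher in D. sechellia, 3 lower and 7 not called, beside 49.4% of all genes higher and 6.36% lower. Those of smallest p were alpha-Est5 with 2.43, alpha-Est1 with 1.73, alpha-Est10 with 2.50 and Est-P with 2.26.

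The genes whose pattern was most like that of Est-6 were picked by correlation. Over the 24 group means of rescaled log2 values, the highest Pearson correlations among 5742 genes were with CG14259 (0.981), Acox57D-d (0.980), Cpr (0.979), Tps1 (0.979) and CG9780 (0.975). Acox57D-d encodes a peroxisomal acyl-CoA oxidase, Cpr the reductase that passes electrons to cytochrome P450 enzymes, and Tps1 a trehalose-6-phosphate synthase. The 24 means span both stages, so these correlations include the step between adults and larvae, and the genes come from the same libraries. Cpr had 536 ± 88.6 FPKM in hybrid adults and 37.3 ± 16.6 FPKM in hybrid larvae. Tps1 had 511 ± 106 FPKM in D. sechellia adults and 12.3 ± 11.5 FPKM in D. sechellia larvae.

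Within a stage other genes came first. Over the 12 adult group means they were lectin-24A (0.961), a C-type lectin gene, Axud1 (0.908) and CG33098 (0.883). Over the 12 larval group means they were CG31266 (0.954), CG6296 (0.950) and CG4598 (0.942). The 12 means of a stage span all genotypes, so these correlations include differences between genotypes. Between stages, lectin-24A was higher in adults by a call in D. simulans alone (log2 difference 0.72, adjusted p = 0.0378). Its difference was -0.17 in hybrids and -0.64 in D. sechellia, neither of them called (adjusted p = 0.628 and 0.0616). CG33098 and CG31266 were higher in adults by a call in every genotype. For CG33098 the difference was 5.15 in hybrids, 3.36 in D. sechellia and 4.19 in D. simulans. Axud1 was higher by a call in hybrids and D. sechellia. CG4598 was higher in hybrids and lower in D. simulans, and CG6296 lower in both species, each by a call.

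The sites known for Est-6 in D. melanogaster were only thinly marked in the table. Of 24 names for the male ejaculatory duct and accessory gland, 15 were in the table, and they summed to 0 to 97.2 FPKM in hybrid adults, 6.02 to 36.7 in D. sechellia adults and 0.303 to 2.99 in D. simulans adults. Of the 15 genes, 12 were at 0 in every hybrid adult library, 8 in every D. sechellia adult library and 7 in every D. simulans adult library. Dup99B, SP, Acp29AB, Acp33A, EbpII and aqrs were at 0 in every adult library of the 3 genotypes. Below 1 FPKM in every adult library were 13 in hybrids, 11 in D. sechellia and 13 in D. simulans, so few genes made up the adult sums. In larvae the same list summed to 95.1 to 1006 FPKM in hybrids, 66.3 to 172 in D. sechellia and 7.72 to 34.1 in D. simulans. Of the 15 genes, 10 were below 1 FPKM in every hybrid larval library, 8 of them at 0. The counts were 13 and 9 in D. sechellia larvae and 11 and 7 in D. simulans larvae, so few genes made up the larval sums. Of 11 antennal names, 3 were in the table, with summed levels of 1.83 to 68.7 FPKM in hybrid adults, 17.5 to 60.1 in D. sechellia adults and 11.7 to 15.8 in D. simulans adults. Whether any 1 tissue carried the adult Est-6 was not tested.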

How the data were processed

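Each library came from 10 whole animals. The authors deposited FPKM for 7836 genes in 96 columns, 48 of them allele columns. Per the submitters' processing notes, FastQC, Bowtie2 and Cufflinks were used; for versions, genome builds and allele assignment, the sources used here give nothing. The read depth is unknown. Both allele columns of a hybrid library were added. The test was limma 3.58.1 (R 4.3.3) on log2(FPKM + 1), for genes reaching 1 FPKM in 3 or more libraries, with a mean-variance trend and Benjamini-Hochberg adjustment, in fits of 36 libraries per stage or all 72 for stage. The pseudocount understates changes of low genes. Allele columns were scaled to 1000000 each. The library was a block in the allelic fit. The parental minus allelic fit had no such block and took both allele columns of a library as independent. Alternatives were median-ratio rescaling, a pseudocount of 0.1, no filter, no trend, a replicate block, only the libraries compared, other allele scalings and leaving out each library. Rescaling together with a pseudocount of 0.1, and the genes most like Est-6 in D. sechellia larvae, were chosen after seeing the data. The gene, lists and tests were chosen with earlier results of these data known. Named genes were Est-6, up to 4 called esterases of smallest p with a mean of at least 5 FPKM per species or stage contrast, and the genes most correlated with Est-6; others were chosen after their values were seen. Simulated data were used to test the D. sechellia versus D. simulans contrast of each stage, and no other contrast. Figures used Python 3.11.15 and matplotlib 3.10.9.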

Additional observations from a re-analysis of the deposited data

How the results depend on the processing

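The 3 stage differences and the hybrid excess over D. sechellia adults kept their direction and call under every alternative run. Median-ratio rescaling gave -0.59 for D. sechellia versus D. simulans adults, -0.091 for hybrid versus D. simulans adults, 0.10 for the previous medium in hybrid larvae and 0.0038 for the parental minus the allelic difference in larvae. A pseudocount of 0.1 gave 0.12 for the last. Rescaling with a pseudocount of 0.1, chosen after seeing the data, gave -0.59, -0.092, 0.033 and 0.35 for the same 4, and -1.80 with a call (adjusted p = 0.0347) for D. sechellia versus D. simulans larvae. A shared total gave 0.67 for the adult allelic difference, -1.84 for the adult parental minus allelic difference and -0.84 for the larval allelic difference. Allele columns as deposited gave 0.66, -0.46 and -0.54. The cause was not tested.

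Leaving out 1 library at a time gave 0.13 to 0.28 for D. sechellia versus D. simulans adults, 0.41 to 1.10 for stage by species, -1.14 to -0.45 for hybrid versus D. sechellia larvae, -1.71 to -1.19 for the larval allelic difference and -0.61 to 0.049 for the larval parental minus allelic difference. For the current medium it gave -0.12 to 0.060 in D. simulans adults and -0.71 to 0.38 for the difference between species in larvae. For the previous medium it gave -1.34 to 0.039 in D. sechellia larvae and -0.34 to 0.21 in hybrid larvae. Replicate 1 of the D. sechellia SS or SO larvae, when left out, gave the changed call or sign in stage by species, hybrid versus D. sechellia larvae, the previous medium in D. sechellia larvae, the current medium between species in larvae and the larval parental minus allelic difference. With the replicate number as a block, no call or direction changed, and the adult species difference was 0.20 in that fit. That block was the same for all genotypes of a fit and took the place of the library block in the allelic fit. It could not absorb deviations shared by the libraries of a single genotype. Correlations of same-numbered deviations ran from -0.75 to 0.78 over all sets. In D. simulans larvae they were 0.33 to 0.62 for replicate 3, -0.07 to 0.56 for replicate 1 and -0.03 to 0.78 for replicate 2. Their medians there were 0.41, 0.27 and 0.37, so same-numbered D. simulans larvae mostly deviated together. Not every correlation was positive, and the numbers were not taken to pair the samples. Differences restricted to the libraries compared could not be run for alleles, where all columns are already compared. Depth is unknown, so values near 0 have no counting limit.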
